A study of Mus musculus with 185 samples.

Results

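The hypothalamus of mice fasted for 16 h was compared with the hypothalamus of mice kept on chow over the same hours. The hypothalamus was dissected whole, as 1 sample per mouse, and sequenced as total RNA after removal of ribosomal RNA. The count matrix gives the mouse of each column, 5 columns for each of 37 mice, but not the brain region. The hypothalamus column of a mouse was therefore chosen by measured values: among its columns with at least 1000000 counts, the one with the highest mean log2(CPM + 1) of Avp, Oxt, Nkx2-1, Six6, Rax and Fezf1, where CPM are counts per 1000000 counts of a column and where that mean was at least 1 above the next column of the mouse. Of all these columns the rule gave 11 for this comparison, 5 from chow mice (mice 1, 2, 3, 4 and 6) and 6 from fasted mice (mice 7 to 12), and the 6 genes of the rule were left out of the tests. For fasted mouse 12, whether the chosen column is its hypothalamus sample could not be told.

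All mice were male C57BL/6 J, an inbred strain, 8 weeks old, with no transgene or deletion in any group. In the 16 h study they were housed 2 per cage, with 3 cages per diet. The cages were started 1 after another, in the repeated order chow, fasted and high-fat diet. Each run of 3 cages is called a round here. The labels do not name rounds, and the start times show no break between them. The chow group ate standard chow, the fasted group had its food removed in the late afternoon and spent the night without it, and another group received a high-fat diet (HFD, 4 hypothalamus columns by the same rule) and entered the same fit. Over the fast, the 6 fasted mice changed in body weight by a median of -2.50% (from -7.52% to -1.30%), and the 5 chow mice by a median of 2.13% (from 0.386% to 5.13%), without overlap. A second study, which differed in housing, hour of food removal and diets, compared single-housed mice fasted for 24 h (10 hypothalamus columns) with chow mice (7 columns).

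The hypothalamus reads the energy state of the body through hormones such as leptin, ghrelin, insulin and the glucocorticoids, and answers through neurons that release feeding peptides. Neurons of the arcuate nucleus that make AgRP and NPY drive eating, and their neighbours that make POMC and CART restrain it. The paraventricular nucleus, through CRH, sets the release of glucocorticoids, which bind a nuclear receptor in neurons and glia and switch on a set of well known target genes.

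The marker score that chose the columns ran from 4.18 to 4.66 in the chow mice and from 2.98 to 4.72 in the fasted mice, and the next column of each mouse scored between 0.18 and 0.43. Fasted mouse 12 stood nearest to the limit, with a score of 2.98 and a next column at 0.262. Its hypothalamus sample carries the label of a failed alignment check, so whether the column is that sample cannot be told from the headings. Another column of mouse 12, of 121967 counts and so below the minimum, scored 2.16, and with no minimum the rule gave no column for this mouse. Chow mouse 5 fell outside the rule, since 2 of its columns scored 4.76 and 4.44, and it was left out. For the same reason, or for want of a column above the limit, HFD mice 16 and 13 were left out. Depth was 12707072 to 45657731 counts per column on chow and 14026495 to 38622452 in the fasted mice, and mitochondrial genes took 3.68 to 4.73% and 3.98 to 5.74% of the counts.

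**Figure D1:**
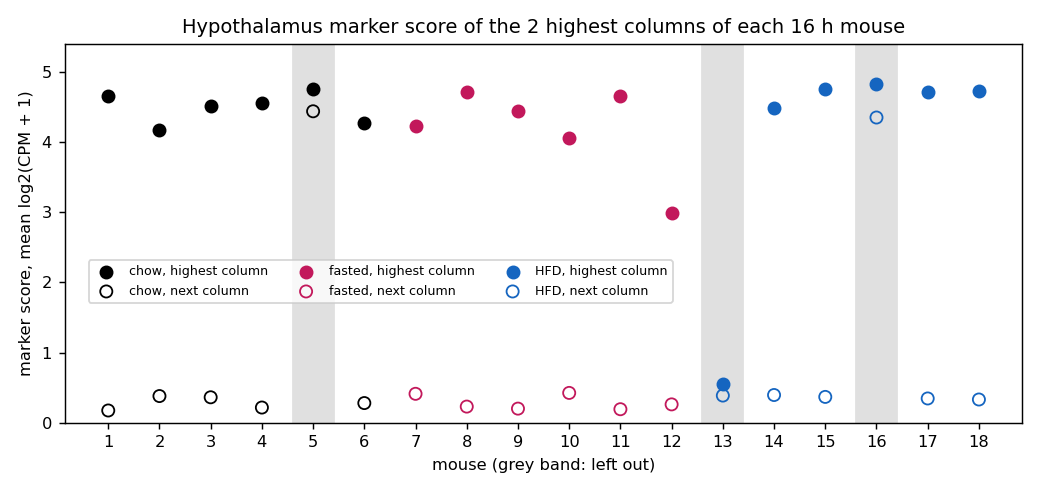
Marker score (mean log2(CPM + 1) of 6 hypothalamic genes) of the highest (filled) and the next column (open) of each 16 h mouse, by diet, with mice left out under a grey band. Fasted mouse 12, at 2.98, lies below the other chosen columns, and chow mouse 5 and HFD mouse 16 have a pair of high columns each.

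Fasted mouse 12 also stood apart in genes that the rule did not use. The summed level of 23 other hypothalamic genes was 219.5 CPM in this column, against 628.8 to 716.7 CPM in the chow columns and 531.2 to 804.9 CPM in the other fasted columns. A list of 7 midbrain genes, chosen after values were seen, summed to 154.5 CPM in mouse 12 and 63.3 CPM in fasted mouse 10, against 17.9 to 31.5 CPM on chow. Pax7, a transcription factor of the dorsal midbrain, was at 0.772, 1.85, 1.33, 1.37 and 1.33 CPM in the chow mice and from 0.857 to 31.4 CPM, with a median of 1.93 CPM, in the fasted mice. The high fasted values of Pax7 were those of mice 12 and 10. Values without mouse 12 are therefore given beside many of the lists and some of the genes. All other values include this column. In bulk tissue, fewer cells of a type and less RNA per cell cannot be told apart.

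With edgeR's quasi-likelihood test and Benjamini-Hochberg adjustment, 0 of 23272 genes (0.0%) differed between fasted and chow hypothalami at an adjusted p under 0.05, and the lowest adjusted p was 0.163. At an unadjusted p under 0.05, 1332 genes were higher in the fasted mice, 5.72% of those tested, and 1211 were lower, 5.2%. DESeq2 on the same columns called 32 genes higher (0.0935% of 34221 tested) and 21 lower (0.0614%), and limma-voom called 0. Without mouse 12, edgeR again called 0 genes, with 2206 below an unadjusted p of 0.05 (lowest adjusted p = 0.134), and DESeq2 called 19 higher (0.0558%) and 17 lower (0.05%). The HFD group, against the same chow mice, had 0 calls with edgeR and with DESeq2 and, at an unadjusted p under 0.05 with edgeR, 435 genes higher (1.87%) and 439 lower (1.89%).
In the account that follows, a single gene is therefore described by its values in the libraries and its unadjusted p, and none is called. The groups did not overlap, with each fasted library above each chow library, in 0.662% of the genes, and with each fasted library below in 0.666%.

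The 20 genes of lowest p, up to 0.000204 in edgeR, were chosen by this comparison, and their sizes here are a description. Of them, 13 were higher and 7 lower in the fasted mice, by 0.28 to 1.25 on the log2 scale. DESeq2 called 19 of the 20, and 17 without mouse 12, and the sign without mouse 12 was unchanged in 20 of 20. In each of the 3 rounds the ratio of fasted to chow means had the same sign for 20 of the 20, with the limit that round 3 holds a single chow column, that of mouse 6. These agreements were counted in the libraries that chose the genes, so they too are a description and no separate support.

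Sdc4, syndecan-4, a cell-surface heparan sulfate proteoglycan, was at 88.1, 100.5, 96.6, 93.8 and 99.5 CPM on chow and between 109.8 and 154.9 CPM, with a median of 120.7 CPM, after the fast. The groups did not overlap, and mice 11 and 12 were the highest. The log2 difference was 0.41 ± 0.08 (SE, edgeR p = 2.80e-05), and 0.36 without mouse 12. Etnppl, an astrocyte-enriched lyase of phosphoethanolamine, was at 61.5, 64.04, 72.7, 61.8 and 59.7 CPM on chow and from 69.8 to 146.2 CPM, median 99.9 CPM, in the fasted mice. A single fasted mouse, mouse 8, fell inside the chow range. Its log2 difference was 0.69 ± 0.13 (SE, edgeR p = 3.43e-05) and 0.56 without mouse 12.

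Enzymes of proline and sulfur metabolism stood among the 20. Prodh, proline dehydrogenase, was at 29.7, 30.3, 29.4, 29.1 and 31.1 CPM on chow and from 34.2 to 50.0 CPM, median 36.1 CPM, in the fasted mice, without overlap (log2 difference 0.40 ± 0.09 SE, edgeR p = 0.000197). Cbs, cystathionine beta-synthase, which draws homocysteine into cysteine synthesis, was at 33.5, 31.4, 34.0, 34.7 and 34.4 CPM on chow and from 38.0 to 47.8 CPM, median 39.4 CPM, after the fast (log2 difference 0.31 ± 0.06 SE, edgeR p = 7.99e-05). Both genes were higher in each fasted mouse than in any chow mouse, and mice 11 and 12 held the top values of both. Tst, rhodanese, a mitochondrial enzyme of sulfide and cyanide handling, went the other way. It was at 18.98, 19.2, 18.2, 20.8 and 17.2 CPM on chow and from 13.9 to 16.7 CPM, median 15.4 CPM, in the fasted mice (log2 difference -0.30 ± 0.06 SE, edgeR p = 0.000115). Tst shares its locus and strand with Mpst, so its reads could be split between the genes.

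P4ha1, a catalytic subunit of collagen prolyl 4-hydroxylase, was lower after the fast. Its level was 38.2, 46.2, 49.3, 44.6 and 43.1 CPM on chow and 31.4 to 38.2 CPM, median 33.7 CPM, in the fasted mice. The ranges met almost exactly, since fasted mouse 8 (38.19 CPM) lay just under chow mouse 1 (38.23 CPM). The log2 difference was -0.38 ± 0.07 (SE, edgeR p = 4.70e-05). Pzp, a secreted protease inhibitor of the alpha-2-macroglobulin family, was at 6.07, 7.80, 7.39, 7.44 and 5.80 CPM on chow and 3.39 to 5.37 CPM, median 4.88 CPM, after the fast (log2 difference -0.59 ± 0.12 SE, edgeR p = 0.000113).

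Among the rest, Bcl6, a zinc-finger repressor, was higher (log2 difference 0.44 ± 0.09 SE, edgeR p = 9.22e-05), with 16.2 to 18.5 CPM on chow and 20.3 to 26.2 CPM in the fasted mice. Pla2g4e, a cytosolic phospholipase, was at 9.18 to 12.9 CPM on chow and 13.8 to 16.6 CPM after the fast. Chst15, a sulfotransferase of chondroitin sulfate, was at 10.5 to 14.9 CPM and 14.5 to 20.7 CPM, and these ranges touched. On the lower side were Arhgef19, a guanine nucleotide exchange factor (25.6 to 29.2 against 19.7 to 25.0 CPM), Prdm15, a zinc-finger factor (33.4 to 37.2 against 26.9 to 29.4 CPM), and Pcdh12, a protocadherin of endothelium (1.02 to 1.55 against 0.361 to 0.857 CPM). The non-coding genes Gm42787, Gm49492 and Gm26703 and the gene Armcx5 were also among the 20. In 14 of the 20 genes the annotation places another gene over some of their bases, and the strand setting of the counting is not given in the sources used here, so the counts of such genes are uncertain. Gm42787 lies antisense to Hmgb1, and Armcx5 overlaps Gprasp1 on its own strand.

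**Figure D2:**
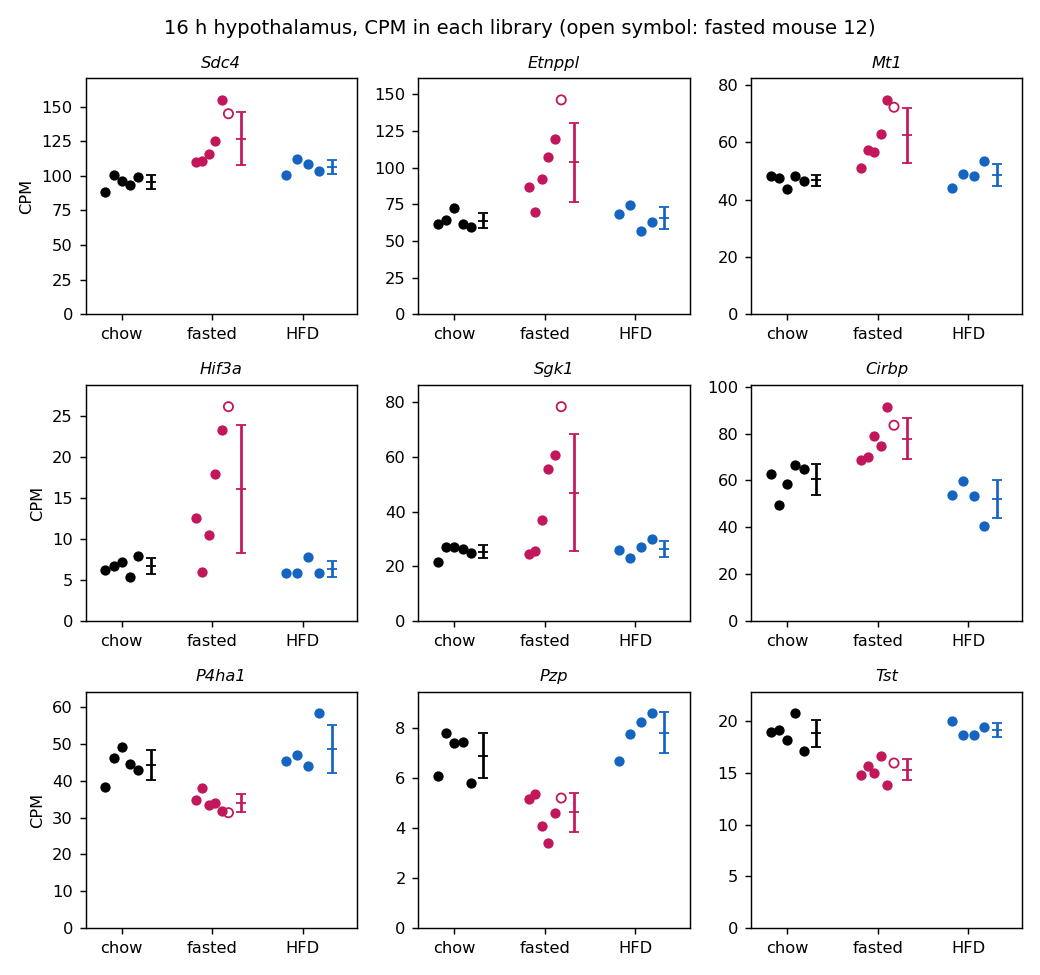
CPM of 9 genes in each chow, fasted and HFD hypothalamus library (points, with fasted mouse 12 open), with the mean and SD of each group beside them. Between chow and fasted mice, Sdc4, Mt1, Cirbp, P4ha1, Pzp and Tst do not overlap, while fasted mouse 8 lies in the chow range of Hif3a and Etnppl and fasted mice 7 and 8 lie in that of Sgk1.

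Targets of the glucocorticoid receptor were, as a list, higher in the fasted mice. Of 26 listed genes 24 were tested, and 18 were higher at an unadjusted p under 0.05, with 0 lower, against the 5.72% and 5.2% of all genes. Their median log2 difference was 0.30, against 0.00 over all genes. Without mouse 12, 16 were higher and 0 lower, with a median of 0.27, and over 27 alternative settings the count ran from 14 to 18. DESeq2 called 5 of them, all higher (Mt1, Hif3a, Nfkbia, Sult1a1 and Map3k6), but without mouse 12 it called 1, Mt1 (DESeq2 adjusted p = 0.0107), and edgeR called 0 of them in either case. The list was drawn up with results of these data known.

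Hif3a (chr7:16764918-16796352, minus strand, GRCm39), a member of the hypoxia-inducible factor family, had the widest difference of the list. It was at 6.17, 6.67, 7.15, 5.36 and 7.92 CPM on chow and from 6.00 to 26.1 CPM, with a median of 15.3 CPM, in the fasted mice. Fasted mouse 8 lay within the chow range, and the other fasted mice lay above it. The log2 difference was 1.25 ± 0.26 (SE, edgeR p = 0.000128, DESeq2 adjusted p = 0.0322), and 1.06 without mouse 12, where DESeq2 no longer called it (adjusted p = 0.0935).

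Sgk1 (chr10:21758083-21875802, plus strand, GRCm39), a kinase that regulates ion channels and transporters, was at 21.5, 27.2, 27.3, 26.2 and 25.1 CPM on chow and from 24.6 to 78.5 CPM, median 46.3 CPM, after the fast. Mice 7 and 8 lay within the chow range and the other 4 fasted mice above it. The log2 difference was 0.87 ± 0.22 (SE, edgeR p = 0.000849) and 0.67 without mouse 12. Mt1, metallothionein 1, a metal-binding protein, did not overlap between the groups, with 48.2, 47.6, 43.6, 48.2 and 46.3 CPM on chow and 50.8 to 74.8 CPM, median 59.95 CPM, in the fasted mice (log2 difference 0.41 ± 0.08 SE, edgeR p = 4.67e-05). Map3k6, a kinase of the stress-activated cascades, was at 1.34, 2.27, 2.11, 1.31 and 1.80 CPM on chow and 2.37 to 4.34 CPM, median 2.81 CPM, after the fast, also without overlap (log2 difference 0.79 ± 0.20 SE, edgeR p = 0.000693).

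These 3 genes, Sgk1, Mt1 and Map3k6, are shown with the bases before a start site because theirs were the promoters of the list that held the consensus of a glucocorticoid response element, an inverted repeat read on both strands. Promoters of RefSeq (GRCm38.p6, 250 bases before to 50 after each start) were at hand for 21 of the genes, 31 promoters in all, and 3 of these (9.68%) held it, against 0.475% of 32851 promoters overall. The match is in capitals.
Sgk1, chr10:21993657-21993759, plus strand: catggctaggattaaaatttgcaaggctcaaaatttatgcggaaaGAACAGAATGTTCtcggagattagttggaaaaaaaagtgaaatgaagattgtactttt
Mt1, chr8:94178950-94179052, plus strand: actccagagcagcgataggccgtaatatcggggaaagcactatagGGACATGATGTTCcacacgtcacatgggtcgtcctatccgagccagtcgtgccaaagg
Map3k6, chr4:133240592-133240694, plus strand: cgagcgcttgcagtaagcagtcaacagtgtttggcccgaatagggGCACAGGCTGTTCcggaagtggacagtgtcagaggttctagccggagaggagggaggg
The match of Sgk1 also holds the letters GAANNTTC that are searched below for heat shock genes. A match of letters is not a binding site, and elements outside these windows were not searched.

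Other targets with a nominal difference were Sult1a1, a sulfotransferase (log2 difference 0.53 ± 0.13 SE, edgeR p = 0.000741), and Nfkbia, the inhibitor of NF-kappaB (0.41 ± 0.10 SE, edgeR p = 0.000580). Nfkbia was at 8.64, 11.6, 9.39, 11.7 and 13.0 CPM on chow and from 12.7 to 16.5 CPM, median 14.2 CPM, in the fasted mice. Plin4, a coat protein of lipid droplets, was at 12.0 to 14.8 CPM on chow and 13.3 to 38.6 CPM in the fasted mice, with mouse 8 inside the chow range (log2 difference 0.72 ± 0.22 SE, edgeR p = 0.00371). Fkbp5, the co-chaperone that dampens the glucocorticoid receptor and is a widely used reporter of its activity, differed less. It was at 25.1, 25.0, 28.6, 26.4 and 26.3 CPM on chow and from 25.5 to 50.1 CPM, median 28.9 CPM, in the fasted mice, and mouse 11 alone was far above the others (log2 difference 0.27 ± 0.13 SE, edgeR p = 0.0480). Errfi1, Dusp1, Cebpd and Angptl4, also in the list, had log2 differences of -0.01, 0.01, -0.01 and -0.13.

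The size of this group of differences was not the same in each round. The median log2 ratio of the 24 targets was 0.09 in round 1, 0.25 in round 2 and 0.48 in round 3. For Sgk1 the log2 ratios were 0.05, 0.79 and 1.47, and for Hif3a 0.53, 1.17 and 1.63. Fasted mice were killed on average 23, 19 and 15 min later than the chow mice of their round, and the rounds followed each other through the morning, from 506 to 653 min after midnight. The part of the hour of death, of the cage and of mouse 12 (round 3) in these values was not tested. In the HFD mice, against the same chow mice, 0 of the 24 targets passed an unadjusted p of 0.05 and the median log2 difference was 0.05. In the other columns of the same fasted mice, which hold the other dissected regions, the median of the same 24 genes was 0.27. The difference between the hypothalamus and these other columns of a mouse gave 0 calls in limma over 23272 genes (1314 at an unadjusted p under 0.05, lowest adjusted p = 0.817).
Receptors and the releasing peptide were also read. Nr3c1, the glucocorticoid receptor, had a log2 difference of -0.07 ± 0.05 (SE, edgeR p = 0.21) and Nr3c2, the mineralocorticoid receptor, 0.09 ± 0.05 (SE, edgeR p = 0.079). Crh, the releasing peptide that starts the hormonal cascade, was at 0.926, 1.37, 1.06, 1.25 and 1.10 CPM on chow and from 0.723 to 1.95 CPM, median 1.56 CPM, in the fasted mice. Mouse 12 held the lowest Crh value, and the log2 difference was 0.39 ± 0.22 (SE, edgeR p = 0.0869) with it and 0.51 (edgeR p = 0.0178) without it.

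Chaperones of the cytosol and of the endoplasmic reticulum were in part lower. Of 19 genes of the heat shock response and of the response to cold, 8 were lower at an unadjusted p under 0.05 (background 5.2%) and 2 higher (background 5.72%), with a median log2 difference of -0.10. Without mouse 12 these counts were 7 and 2, without chow mouse 2 they were 3 and 1, without chow mouse 3 they were 3 and 2, and with both columns of chow mouse 5 added they were 2 and 1. The members that were higher were Cirbp and Rbm3, RNA-binding proteins known for their induction in mild cold. Cirbp was at 62.6, 49.7, 58.3, 66.4 and 64.99 CPM on chow and from 68.7 to 91.5 CPM, median 76.8 CPM, after the fast, without overlap (log2 difference 0.37 ± 0.09 SE, edgeR p = 0.000536). DESeq2 called Cirbp (adjusted p = 0.0493), but no longer without mouse 12 (adjusted p = 0.213). Rbm3 was at 27.6 to 36.5 CPM on chow and 31.9 to 44.7 CPM in the fasted mice (log2 difference 0.23 ± 0.08 SE, edgeR p = 0.0137).

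The lower members were heat shock proteins and their partners. Hsph1, a nucleotide exchange factor of HSP70, was at 228.3, 275.0, 273.6, 240.4 and 229.0 CPM on chow and up to 236.4 CPM, median 202.7 CPM, in the fasted mice, of which mouse 12 was lowest, the next was at 196.1 CPM, and mouse 8 was inside the chow range (log2 difference -0.31 ± 0.09 SE, edgeR p = 0.00214). Chordc1, an HSP90 co-chaperone, was at 83.4 to 113.5 CPM and 75.9 to 92.4 CPM (log2 difference -0.22 ± 0.07 SE, edgeR p = 0.00615). Hspa1b, an inducible HSP70, was low in both groups, at 1.49 to 2.96 CPM and 1.08 to 2.45 CPM (log2 difference -0.59 ± 0.21 SE, edgeR p = 0.00954). Hspa1a, its near-identical neighbour with which it can share reads, had a log2 difference of -0.51 (edgeR p = 0.0557). Hspb1, a small heat shock protein, had one of -0.57 ± 0.21 (SE, edgeR p = 0.0128).

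Promoters of this list are shown for these inducible genes because they hold GAANNTTC, a pair of inverted heat shock units read on both strands. Of the 20 RefSeq promoters of 14 of these genes, 11 held it (55.0%), against 2582 of all 32851 (7.86%). The promoter stretches of Hspa1a and Hspa1b had the same letters, so that of Hspa1b stands for both. In each stretch a match is in capitals, and the Hspb1 stretch holds another, gaaccttc, left in small letters.
Hspa1b, chr17:34959290-34959387, minus strand (GRCm38.p6): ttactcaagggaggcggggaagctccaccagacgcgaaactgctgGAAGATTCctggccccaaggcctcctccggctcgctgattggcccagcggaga
Hspb1, chr5:135887757-135887854, plus strand (GRCm38.p6): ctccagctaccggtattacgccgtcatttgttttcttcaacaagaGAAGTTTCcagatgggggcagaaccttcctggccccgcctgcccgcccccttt
Cirbp and Rbm3 were not among the genes whose promoters held it. No match says only that these letters were not in the window.

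In the endoplasmic reticulum, 4 of 18 chaperone genes were lower at an unadjusted p under 0.05 (background 5.2%) and 0 higher (background 5.72%), with a median log2 difference of -0.08. Without mouse 12 there were 3 lower, without chow mouse 2 there was 1, without chow mouse 3 there were 2, and without chow mouse 6 there were 8. The 4 were Sdf2l1, Calr, Xbp1 and Manf. Sdf2l1, a stress-induced partner of the lumenal chaperones, was at 6.07, 9.61, 8.69, 7.85 and 5.02 CPM on chow and from 2.96 to 6.45 CPM, median 5.02 CPM, in the fasted mice, so that the ranges overlapped (log2 difference -0.63 ± 0.18 SE, edgeR p = 0.00209). Xbp1, a transcription factor of the unfolded protein response, had a log2 difference of -0.19 ± 0.07 (SE, edgeR p = 0.0163). Of 19 targets of the integrated stress response, 2 were higher (background 5.72%) and 0 lower (background 5.2%). In the HFD mice, against the same chow mice, 4 of the 19 heat shock and cold genes and 2 of the 18 reticulum genes were higher and 0 lower, beside 1.87% and 1.89% of all genes.

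**Figure D3:**
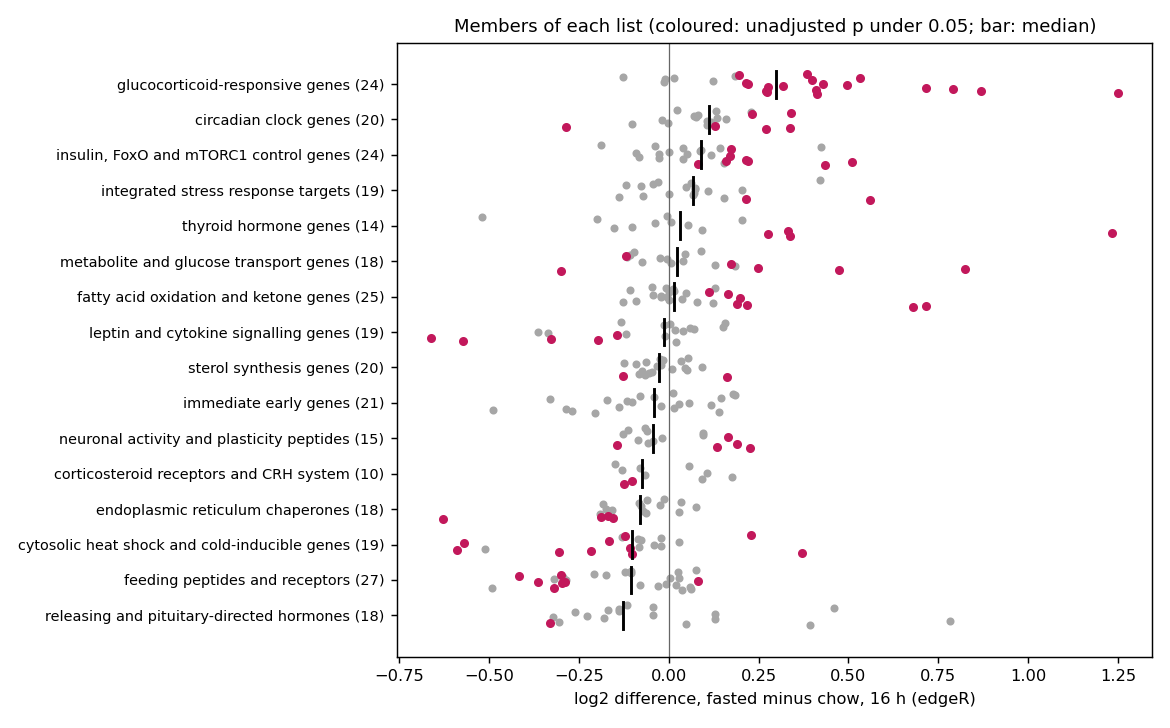
Log2 difference between fasted and chow hypothalami for the genes of 16 lists of processes (points, coloured at an unadjusted edgeR p under 0.05), with the median of each list as a bar and the number of genes tested in brackets. The glucocorticoid-responsive list has a median of 0.30, and the heat shock and reticulum chaperone lists have medians of -0.10 and -0.08.

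The peptides that drive eating had log2 differences near 0 after 16 h. Agrp was at 10.1, 6.78, 7.49, 6.66 and 6.04 CPM on chow and from 4.77 to 12.2 CPM, median 6.70 CPM, in the fasted mice. Npy was at 8.85, 6.38, 7.85, 7.56 and 7.68 CPM on chow and from 3.11 to 12.6 CPM, median 7.65 CPM, in the fasted mice. For both peptides the fasted mice lay on either side of the chow range, with mouse 11 highest and mouse 12 lowest. The log2 differences were 0.04 ± 0.21 for Agrp and 0.06 ± 0.23 for Npy (SE, edgeR p = 0.866 and 0.794), and 0.13 and 0.21 without mouse 12. The annotated span of Agrp runs over several neighbours, Ctcf and Ripor1 among them, so its counts are uncertain.

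Pomc was at 27.2, 39.1, 41.0, 38.7 and 38.6 CPM on chow and from 5.56 to 43.8 CPM, median 28.02 CPM, in the fasted mice. The lowest Pomc value was that of mouse 12, and fasted mouse 9 was above the chow range. The log2 difference was -0.49 ± 0.28 (SE, edgeR p = 0.0991) and -0.30 (edgeR p = 0.122) without mouse 12. Cartpt, which encodes CART, was at 35.9, 44.4, 40.7, 41.5 and 38.5 CPM on chow and from 15.5 to 40.5 CPM, median 36.2 CPM, after the fast (log2 difference -0.32 ± 0.15 SE, edgeR p = 0.0487, and -0.19 without mouse 12). Summed over 8 genes of the arcuate nucleus, mouse 12 was at 49.6 CPM and the other fasted mice at 90.97 to 170.2 CPM, against a median of 152.2 and a highest of 164.5 CPM on chow. Hcrt, or orexin, and Pmch, the precursor of melanin-concentrating hormone, both of the lateral hypothalamus, had log2 differences of 0.06 ± 0.28 and -0.03 ± 0.17 (SE, edgeR p = 0.833 and 0.865).

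**Figure D4:**
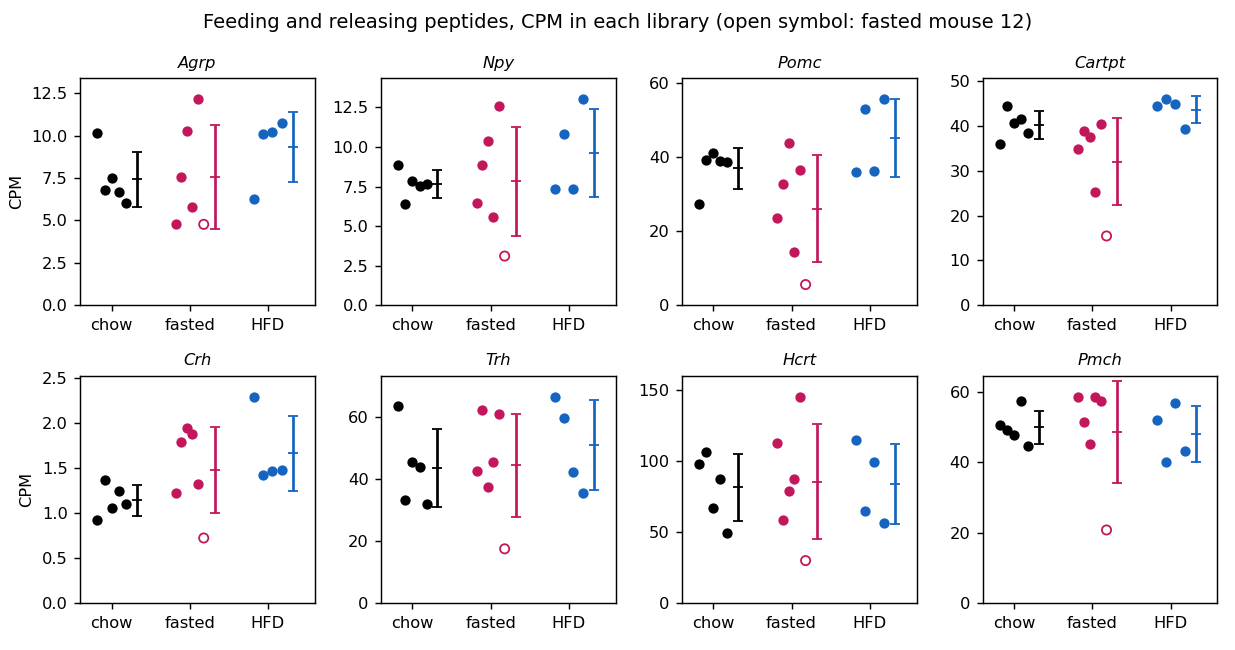
CPM of 8 hypothalamic peptide genes in each chow, fasted and HFD library (points, with fasted mouse 12 open), with the mean and SD of each group beside them. Chow and fasted mice overlap in each panel, and fasted mouse 12 is the lowest library for Npy, Pomc, Cartpt, Crh, Trh, Hcrt and Pmch.

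Among the receptors, the leptin receptor Lepr, the ghrelin receptor Ghsr and the melanocortin receptor Mc4r had log2 differences of 0.02 ± 0.14, -0.08 ± 0.15 and -0.01 ± 0.15 (SE, edgeR p = 0.882, 0.591 and 0.965). Both orexin receptors were lower. Hcrtr2 was at 14.5, 18.1, 19.5, 16.5 and 17.6 CPM on chow and from 11.4 to 15.2 CPM, median 14.7 CPM, in the fasted mice (log2 difference -0.30 ± 0.08 SE, edgeR p = 0.00235). Hcrtr1 was at 7.36, 8.74, 6.94, 6.43 and 6.66 CPM on chow and from 4.19 to 7.00 CPM, median 5.68 CPM, in the fasted mice (log2 difference -0.36 ± 0.13 SE, edgeR p = 0.00907). These ranges overlapped for both receptors. Bdnf, a neurotrophin that curbs feeding, was at 18.7, 24.1, 21.5, 21.0 and 18.97 CPM on chow and from 14.2 to 20.4 CPM, median 17.2 CPM, in the fasted mice (log2 difference -0.29 ± 0.09 SE, edgeR p = 0.00402). Over the 27 tested genes of feeding peptides and receptors, 6 were lower (background 5.2%) and 1 (Insr) higher (background 5.72%) at an unadjusted p under 0.05. The median was -0.10, and without mouse 12 there were 5 lower and 1 higher, with a median of -0.03. The lower count was 3 without chow mouse 2, chow mouse 3 or fasted mouse 10. With 1 surrogate variable, estimated from the counts, as a covariate, 3 were lower and 3 higher, with a median of 0.06. With cages as replicates 9 were lower and 0 higher.

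Leptin acts through the JAK-STAT pathway, whose feedback inhibitors are induced by it. Of 19 genes of leptin and cytokine signalling, 5 were lower at an unadjusted p under 0.05 (background 5.2%) and 0 higher (background 5.72%), with a median of -0.01. Without mouse 12, 4 were lower, with a median of -0.09. Without chow mouse 2 or chow mouse 3, 3 were lower. Cish, a STAT5-induced inhibitor, was at 2.98, 4.99, 4.11, 3.87 and 4.00 CPM on chow and from 2.19 to 3.04 CPM, median 2.81 CPM, in the fasted mice. A single fasted value, that of mouse 9, lay above the lowest chow value (log2 difference -0.57 ± 0.14 SE, edgeR p = 0.000590). Socs2, of the same family, had a log2 difference of -0.33 ± 0.12 (SE, edgeR p = 0.0157), and Socs3, the inhibitor most closely tied to leptin, -0.34 ± 0.18 (SE, edgeR p = 0.077). Ptpn2, a phosphatase of JAK and STAT proteins, had -0.20 ± 0.07 (SE, edgeR p = 0.00706).

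Genes under insulin, FoxO and mTORC1 control were higher in part. Of 24 tested, 8 were higher at an unadjusted p under 0.05 (background 5.72%) and 0 lower (background 5.2%), with a median of 0.09, and 5 were higher without mouse 12. The count rested most on fasted mouse 11, without which 2 were higher and 1 lower, and it was 4 without chow mouse 2 and 5 without chow mouse 1. The 8 were Bcl6, Txnip, Foxo3, Insr, Ddit4, Klf15, Foxo1 and Arrdc3, and Ddit4 and Klf15 are also in the glucocorticoid list. Txnip, an arrestin that limits glucose uptake, was at 9.88, 13.0, 15.3, 10.5 and 15.3 CPM on chow and from 15.1 to 23.5 CPM, median 17.3 CPM, in the fasted mice (log2 difference 0.51 ± 0.13 SE, edgeR p = 0.000853). Mouse 10 alone lay within the chow range of Txnip. The insulin-responsive glucose transporter Slc2a4 (GLUT4) was at 2.11, 1.76, 2.08, 2.74 and 2.43 CPM on chow and from 2.6999 to 6.30 CPM, median 3.54 CPM, in the fasted mice (log2 difference 0.83 ± 0.22 SE, edgeR p = 0.00143). Mfsd2a, a lysolipid transporter of the blood-brain barrier, was at 15.7 to 20.6 CPM and 17.2 to 34.8 CPM (log2 difference 0.47 ± 0.13 SE, edgeR p = 0.00135). Slc7a5, a carrier of large neutral amino acids, had a log2 difference of 0.25 ± 0.07 (SE, edgeR p = 0.00298), and Slc5a3, a carrier of myo-inositol, -0.30 ± 0.08 (SE, edgeR p = 0.000940).

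Genes of fatty acid and ketone metabolism were higher in part. Of 25 genes, 7 were higher at an unadjusted p under 0.05 (background 5.72%) and 0 lower (background 5.2%), but the median was 0.02. Plin4 of this list is also in the glucocorticoid list. Pdk2, a kinase that restrains pyruvate oxidation, had a log2 difference of 0.22 ± 0.07 (SE, edgeR p = 0.00402). Bdh1, which interconverts the ketone bodies, had one of 0.19 ± 0.07 (SE, edgeR p = 0.0106), and Acadl, which oxidizes long-chain fatty acids, one of 0.20. Oxct1, the enzyme by which tissues use ketone bodies, had 0.00, and Cpt1a, which admits fatty acids to mitochondria, 0.08. Pdk4, often induced by fasting elsewhere in the body, had 0.12 ± 0.09 (SE, edgeR p = 0.20).

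In the clock, 5 of 20 genes were higher at an unadjusted p under 0.05 (background 5.72%) and 1 lower (background 5.2%), with a median of 0.11, and of 0.06 without mouse 12. Without fasted mouse 7 or 9, 8 were higher. With 1 surrogate variable as a covariate 4 were higher and 1 lower, with a median of 0.04. With RNA concentration as a covariate 5 were higher and 2 lower. Per1, a negative limb gene that is also a glucocorticoid target, was at 57.1, 55.9, 57.1, 73.5 and 67.5 CPM on chow and from 59.1 to 85.98 CPM, median 75.2 CPM, in the fasted mice (log2 difference 0.27 ± 0.09 SE, edgeR p = 0.00627). The ranges overlapped widely. Nfil3, a repressor of the output genes, was lower (log2 difference -0.29 ± 0.09 SE, edgeR p = 0.00664), and Ciart, a clock repressor, was higher (0.34 ± 0.11 SE, edgeR p = 0.00627). Bmal1 and Clock had -0.10 and 0.00. The later death of the fasted mice of each round was described above, and its part in these values was not tested.
Thyroid hormone genes gave 4 higher of 14 (background 5.72%) and 0 lower (background 5.2%), and Klf9 of this list is also in the glucocorticoid list. Dio2, the deiodinase that activates the hormone, was at 11.3, 15.1, 15.6, 11.8 and 10.7 CPM on chow and from 14.1 to 22.0 CPM, median 16.0 CPM, in the fasted mice (log2 difference 0.34 ± 0.13 SE, edgeR p = 0.0185, and 0.24 with edgeR p = 0.0497 without mouse 12). Ttr, another of these 4, is also the foremost product of the choroid plexus. It was at 0.772 to 2.23 CPM on chow and up to 8.96 CPM in the fasted mice, the latter in mouse 12, and its log2 difference was 1.23 with that mouse and 0.74 without it. Of 21 immediate early genes, 0 passed an unadjusted p of 0.05 in either direction. Fos was at 5.71, 16.6, 6.70, 14.2 and 14.7 CPM on chow and from 4.57 to 19.2 CPM, median 8.63 CPM, in the fasted mice (log2 difference -0.21 ± 0.36 SE, edgeR p = 0.576). Of 15 genes of neuropeptide processing and plasticity, 4 were higher (background 5.72%) and 1 lower (background 5.2%). Chgb, a granin of secretory granules, was at 58.8 to 64.3 CPM on chow and at 65.4 to 79.1 CPM in the fasted mice, without overlap (log2 difference 0.23 ± 0.07 SE, edgeR p = 0.00330).

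Markers of other cells that the dissection could hold also differed. Their counts stand beside 5.72% of all genes higher and 5.2% lower. Of 9 genes of the meninges and fibroblasts, 4 were higher in the fasted mice at an unadjusted p under 0.05 and 0 lower, and 9 of 9 had a positive sign, with a median log2 difference of 0.45. Without mouse 12, 5 were higher and the median was 0.56, and with chow mouse 1, 2 or 4 or fasted mouse 11 left out singly, 2 were higher. Ptgds, prostaglandin D synthase, was at 177.1, 165.7, 405.3, 125.8 and 574.8 CPM on chow and from 245.2 to 770.5 CPM, median 592.4 CPM, in the fasted mice (log2 difference 0.89 ± 0.36 SE, edgeR p = 0.0214). The summed level of the list was 177.6 to 701.6 CPM on chow and 307.2 to 932.2 CPM in the fasted mice. By round its median log2 ratio was 1.27, 0.07 and -0.17, and the single chow column of round 3, mouse 6, was the highest on chow. Slc6a20a, a proline carrier of these cells, was at 5.03, 4.52 and 6.38 CPM in chow mice 2, 4 and 1, at 10.9 and 13.0 CPM in chow mice 3 and 6, and from 6.78 to 22.9 CPM in the fasted mice. The part of such tissue in the other results was not tested. Of 8 astrocyte genes 3 were higher and 0 lower, and 3 and 1 without mouse 12. Of 9 oligodendrocyte genes 2 were higher and 0 lower, and of 8 microglial genes 0 in either direction. Of 7 choroid plexus genes 3 were higher and 1 lower, with a median of 0.35, and without mouse 12 these counts were 1 and 1. Of 6 blood genes and 5 pituitary genes 0 passed in either direction, but 6 of 6 had a positive sign (median 0.40, and 0.19 without mouse 12) and 5 of 5 a negative one (median -0.37, and -0.22 without mouse 12). The 7 genes of the mammillary region had a negative sign in 7 of 7 (median -0.27, and -0.13 without mouse 12), with 0 past an unadjusted p of 0.05. A positive sign was held by 6 of 7 suprachiasmatic genes (median 0.35, and 0.41 without mouse 12) and 4 of 5 paraventricular and supraoptic genes (0.13 and 0.21). So did 4 of 6 lateral genes (0.03 and 0.11). A negative one was held by 6 of 8 arcuate genes (-0.22 and -0.09) and 19 of the 23 hypothalamic genes outside the rule (-0.24 and -0.09). Of 7 genes of the ventromedial nucleus, 4 were lower, 3 without mouse 12, and 1 with chow mouse 3, chow mouse 6 or fasted mouse 10 left out singly. The summed level of these 7 was 383.4 to 462.5 CPM on chow and 257.7 to 447.1 CPM in the fasted mice.

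The mice of the 24 h study are other animals, so they can be set against the 16 h values. The gene lists were drawn up with earlier results of these data known, so list counts at 24 h are a description. Study, single housing, sequencing run, hour of food removal and length of the fast change together and cannot be told apart. There, edgeR called 0.973% of 21490 genes higher and 0.535% lower. Of these 17 libraries, 4 (1 chow and 3 fasted) are labelled as failing alignment, with an RNA concentration listed at 0, 4200885 to 6910059 counts and 12.7 to 29.2% of counts from mitochondrial genes, against 7.64 to 11.4% in the other 13. With the 13 libraries labelled as passing quality control alone, it called 1325 higher (6.03% of 21963) and 1369 lower (6.23%). Of the 20 genes of lowest p at 16 h, 19 were tested at 24 h, 19 had the same sign and 11 were called in that direction, with 0 called in the opposite one. With the passing libraries these numbers were 20, 20, 15 and 0. Over all genes tested in both, 13685 of 21222 had the same sign and 274 were called in it.

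Sdc4 rose at 24 h by 1.08 on the log2 scale (edgeR adjusted p = 2.35e-06), Etnppl by 1.08 (edgeR adjusted p = 7.86e-05), Cbs by 0.74 (edgeR adjusted p = 0.000508) and Prodh by 0.86 (edgeR adjusted p = 0.000622). P4ha1 fell by 0.50 (edgeR adjusted p = 0.0259). Tst was not called with all libraries (log2 difference -0.72, edgeR adjusted p = 0.646) and was called with the passing ones (-1.16, edgeR adjusted p = 3.52e-06). Of the 19 heat shock and cold genes, edgeR called Cirbp and Rbm3 higher at 24 h and Hsph1 and Chordc1 lower, each with its sign at 16 h. The median of this list was 0.05 with all libraries and -0.06 with the passing ones, where 2 were called higher and 3 lower, and that of the reticulum list was -0.20 and -0.10. Among the genes that DESeq2 called at 16 h outside these 20, 10 of 33 were called in the same direction by edgeR at 24 h. Named after their values were seen, Plekhf1, a lysosomal adaptor, had log2 differences of 0.71 and 2.21 at 16 and 24 h, Fbln5, a protein of elastic fibres, 0.60 and 1.58, and Apln, the peptide apelin, -0.39 and -1.17. The sign changed with all libraries in Fstl4 (-0.22 and 0.02), Ahnak2 (0.65 and -0.08) and Sod3 (0.50 and -0.16). With the passing libraries Fstl4 was called higher at 24 h (0.22, edgeR adjusted p = 0.0467).

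The glucocorticoid targets stood further from chow at 24 h. Of the 24, 20 were called higher by edgeR and 0 lower, with a median log2 difference of 1.57, and with the passing libraries 24 were called, with a median of 1.47. Since the list was drawn up with results of these data known, its counts here and below are no separate support. Sgk1 was at 16.4 to 28.2 CPM in 7 chow mice and at a median of 132.1 and a highest of 170.3 CPM in 10 fasted mice, 10 of which lay above the highest chow mouse. In the test of the difference itself (24 h minus 16 h), 11 of the 24 were called higher and 0 lower, out of 33 higher (0.133%) and 10 lower (0.0402%) calls over 24870 genes. For Sgk1 this difference was 1.81 on the log2 scale (edgeR adjusted p = 0.000518), for Fkbp5 1.38 (edgeR adjusted p = 0.00940), for Plin4 2.36 (edgeR adjusted p = 0.000320) and for Sdc4 0.67 (edgeR adjusted p = 0.0133). For Hif3a it was 1.21 and was not called (edgeR adjusted p = 0.172).

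**Figure D5:**
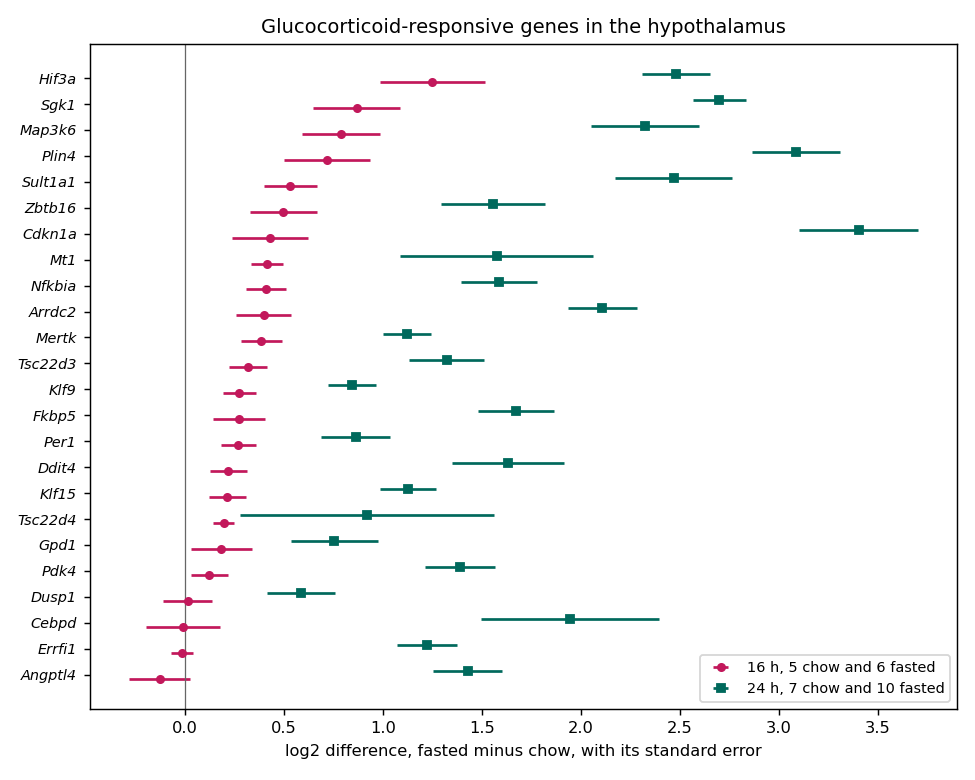
Log2 difference between fasted and chow hypothalami of the glucocorticoid-responsive genes after 16 h (circles) and, in other mice, after 24 h (squares), with standard errors. The medians are 0.30 and 1.57, and Errfi1, Dusp1, Cebpd and Angptl4 lie near 0 at 16 h.

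Agrp and Npy, with log2 differences near 0 at 16 h, were called higher at 24 h. Agrp was at 3.55 to 6.36 CPM in the chow mice and 6.87 to 25.7 CPM in the fasted mice there, without overlap (log2 difference 1.49, edgeR adjusted p = 0.000844), and Npy was higher by 1.56 (edgeR adjusted p = 0.00212). The difference between the fasts was 1.44 for Agrp (edgeR adjusted p = 0.0600) and 1.51 for Npy (edgeR adjusted p = 0.13), not called. With the passing libraries it was 1.17 (edgeR adjusted p = 0.0170) and 1.34 (edgeR adjusted p = 0.0065), and both were called. Pomc had log2 differences of 0.52 with all libraries and -0.64 with the passing ones at 24 h (edgeR adjusted p = 0.890 and 0.605).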

How the data were processed

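Total RNA of dissected mouse brain regions was sequenced from ribosome-depleted, directional libraries. The authors deposited raw gene counts, made per the submitters' processing notes with bcl2fastq 2.20.0 and STAR 2.7.3a, and not normalized. Annotation symbols were at hand for 56310 of 57010 genes (GRCm39), and the strand setting of the counting is not given in the sources used here. Column headings repeat within a mouse, so the hypothalamus column was taken by the marker rule. The members and gene lists were chosen with earlier results of these data known.

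Counts were tested with edgeR 4.0.16 (R 4.3.3; filterByExpr, TMM, quasi-likelihood) with the 3 diets in a single fit and Benjamini-Hochberg adjustment, called at an adjusted p under 0.05. DESeq2 1.42.0, limma-voom (limma 3.58.1), sva 3.50.0, other covariates, no filter, cages as replicates and leaving out each mouse were alternatives. Scripts were tested on simulated data. Gene levels are in CPM on TMM-scaled library sizes, and the SE of a log2 difference is its size divided by the root of edgeR's F. Genes named are the 20 of lowest p, up to 4 members of lowest p from each list, and 16 fixed genes (Agrp, Npy, Pomc, Cartpt, Crh, Trh, Hcrt, Pmch, Lepr, Ghsr, Mc4r, Fkbp5, Sgk1, Per1, Fos and Dio2). Other list members were named after their values were seen. A gene that the rule names is not reported here. P-values measure the spread between mice, which shared cages in pairs.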

Additional observations from a re-analysis of the deposited data

Results flagged for a closer look

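In 72 groups of 5 chow or 6 fasted libraries at 16 h, 4 held a library far from the others in the level of a named gene, where chance gives about 1 in 20 groups. The HFD and 24 h libraries were not looked at in this way. Chow mouse 4 had the highest Prdm15, at 37.2 CPM. Chow mouse 1 had the lowest Pomc of its group, at 27.2 CPM. Fasted mouse 12 had the lowest Pmch, at 20.7 CPM, and it was also low in the other hypothalamic genes. Fasted mouse 11 had the highest Fkbp5, at 50.1 CPM. Between the fasts, the log2 difference from chow was larger at 24 h than at 16 h by 0.67 for Sdc4, by 1.38 for Fkbp5 and by 1.81 for Sgk1, in edgeR's test of the difference itself. Length of the fast, study, housing and sequencing run cannot be told apart in these values.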

How the results depend on the processing

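At 16 h, edgeR called 0 genes in each direction, DESeq2 called 32 higher and 21 lower, 75 and 62 at an adjusted p under 0.1, and 19 and 17 without fasted mouse 12, and edgeR with no filter on low counts called 22 and 7. Leaving out each mouse in turn gave 0 to 5 genes higher and 0 lower, and the 5 without fasted mouse 8 included Sdc4, Armcx5, Etnppl and Hif3a. At 24 h, DESeq2 called 485 and 375 genes, no filter left 74 lower, and the libraries passing quality control gave 1325 and 1369. For the difference between the fasts, DESeq2 called 83 and 53, no filter left 6 lower, and the passing libraries gave 219 and 228. The cause of these differences was not tested. Of 969 values of 36 genes under alternatives, 866 kept direction and side of the threshold, 57 passed it in addition, and 46, in 8 genes with differences near 0, turned direction. Agrp turned to -0.01 with limma-voom, -0.01 with round as a covariate and -0.14 with chow mouse 5 added, and Npy to -0.13 with mouse 5. Hcrt turned to -0.11 with RNA concentration as a covariate. Pmch turned to 0.01 with limma-voom, 0.16 with 1 surrogate variable, 0.08 with marker level, 0.02 with cages as replicates, and 0.12 with passing libraries, with no minimum of counts and with DESeq2 without mouse 12. Lepr turned to -0.03 with cages and -0.01 with mouse 5, Ghsr to 0.06 with the surrogate variable and 0.02 with passing libraries, no minimum and DESeq2 without mouse 12, and Mc4r to 0.02 with round and 0.05 with mouse 5. Leaving out each mouse, the ranges were -0.15 to 0.17 for Agrp, -0.12 to 0.21 for Npy, -0.08 to 0.22 for Trh, -0.16 to 0.22 for Hcrt, -0.09 to 0.12 for Pmch, -0.04 to 0.11 for Lepr, -0.16 to 0.02 for Ghsr and -0.06 to 0.14 for Mc4r. With the round of cages as a covariate, edgeR called 0 genes in each direction (2279 at an unadjusted p under 0.05, lowest adjusted p = 0.172). No fit by replicate number was made, since the numbers in the labels name animals and none occurs in both diets.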
